A study of Homo sapiens with 6 samples.

Results

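Long noncoding and clone-named transcripts made up 174 of the 1161 genes in the deposited table of MDA-MB-231 cells recovered from mouse brain. They were chosen by name alone. Of these members, 134 carried the name of a sequenced genomic clone (such as AC007493.1), 24 had an antisense name ending in AS and a number, and 16 had a LINC name. No listed gene had a name of the MIR host gene or SNHG pattern, and 1 further clone-named row was left out by the definition of the set. Long noncoding RNAs are transcripts without a long reading frame. Some regulate neighbouring genes or act as scaffolds in the nucleus, and many are made from the promoter or the opposite strand of a coding gene and are quickly degraded. They are known for being less abundant and more restricted to particular cell types and states than messenger RNAs, and a clone name marks a gene model that has not been given a functional name.

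MDA-MB-231 is an established triple negative breast adenocarcinoma line. The GFP-tagged cells were labelled with CellVue Claret (CV), a membrane dye that is diluted by division, and injected into the internal carotid artery of female C.B-17 SCID mice aged 6 to 8 weeks, which lack functional B and T cells but keep innate immune cells. At day 28 the left brain hemispheres of 9 or 10 mice were pooled, and dye-retaining GFP+CV+ cells, which the study calls cell cycle-inactive or dormant, were sorted apart from GFP+CV- cells, which it calls proliferating. Each group had 3 libraries, 1 from each of the same 3 pools of mice, so that every library of one group had a counterpart in the other. The study describes the 3 pools as independent experiments. All 6 libraries shared the line, the GFP tag, the dye labelling, the host and the time. The values below are normalized read counts, that is, the deposited estimated counts after division by a size factor per library, and every fold change is GFP+CV+ over GFP+CV-.

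The table held only genes that its authors had already found to differ between these groups. In edgeR (quasi-likelihood, Benjamini-Hochberg adjusted), 99.7% of all listed genes and all 174 members passed an adjusted p of 0.05, so that the number called says nothing about the members, and the adjusted p-values below are descriptions of separation and not independent evidence. Direction, size, level and the relation to neighbouring genes are what the table leaves to be measured. Over the listed genes the libraries held 7978657 to 17928784 estimated counts, and the members took 3.76% to 4.32% of them.

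Among the members, 72 were higher and 102 were lower in GFP+CV+ cells, against a background of 49.6% higher and 50.4% lower over all listed genes. The 3 libraries of each group did not overlap for any of the 174 members, as for 99.2% of all listed genes. The median log2 fold change of the members was -0.66, compared with -0.33 over all listed genes. Both medians turned when only genes with a mean count of at least 100 were kept, to 0.99 over the 102 members left, of which 54 were higher and 48 lower, and to 0.84 over all listed genes left. Higher members had a median of 2.37 and lower members one of -6.03, or -4.06 with members at 0 in a whole group set at their bound. Changes of at least 4-fold were seen upward in 44 members (background 18.3%) and downward in 68 (background 18.5%). Scaling by library totals moved the median of all listed genes up by 0.29 and that of the members to -0.36.

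The direction of the members differed between classes of abundance. Of the 44 members with a mean normalized count under 50, 39 were lower, as were 16 of the 28 members from 50 to under 100. From 100 to under 1000, 43 of the 58 members were higher. From 1000 to under 5000, 13 of the 22 members were lower, and at 5000 or more 19 of 22 were. The other listed genes were also mostly lower at both ends, in 43 of 47 under 50, in 41 of 51 from 50 to under 100 and in 253 of 346 at 5000 or more, and 125 of 194 were higher from 100 to under 1000. They differed in direction from the members between 1000 and under 5000, where 272 of the 349 other genes were higher. The median mean count was 182 in members and 2251 over all listed genes. Many scarce members were absent from GFP+CV+ libraries, while the abundant ones were lower by less than 2-fold in 17 of the 19 cases.

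**Figure D1:**
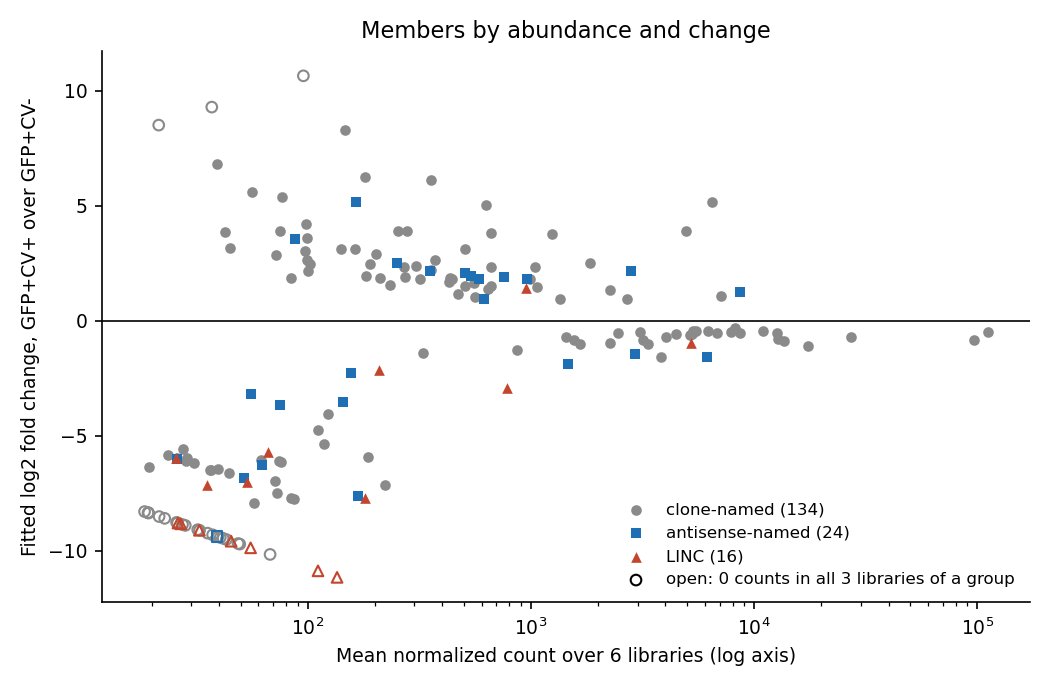
Mean normalized count over the 6 libraries (log axis) against the fitted log2 fold change of GFP+CV+ over GFP+CV- for the 174 members, with clone-named, antisense-named and LINC members marked apart and open symbols for members with 0 counts in all 3 libraries of a group, whose fitted values depend on the prior count. Scarce members lie mostly far below 0, those between 100 and 1000 mostly above it, and the 19 lower members at 5000 or more just below it.

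A count of 0 in all 3 GFP+CV+ libraries was found in 29 members (background 6.03%). Among genes with a mean normalized count under 50 the share was 56.8% in members and 55.3% in the other listed genes. It is thus not particular to the members among genes that scarce. The GFP+CV- means of the 29 members ran from 37.1 to 270.3. The 3 listed genes with 0 counts in all 3 GFP+CV- libraries were all members (background 0.258%). A limit of 3 counts corresponds to a normalized value of 2.85, 2.88 and 4.14 in the GFP+CV+ libraries, and folds of these members are bounds against that limit per library, which covers counting error only. Across the 29 members the bounds ran from at least 11.3-fold to at least 82.1-fold lower, with a median of 19.9-fold. Most small counts in the table were even, and it is not stated whether a read pair was counted as 1 or 2. With a limit of 6 counts per library (3 pairs counted as 2 each), an alternative chosen after seeing the data, the bounds would run from 5.63-fold to 41.0-fold, with a median of 9.94-fold, and all other bounds given here would be lower in the same proportion. In single libraries, 43 to 50 members were at 0 in each GFP+CV+ library and 4 to 8 in each GFP+CV- library. These counts include the members at 0 in a whole group and are not separate evidence. In these bulk libraries, fewer cells with a transcript and less of it per cell cannot be told apart.

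LINC genes, which are named as intergenic models with a curated number, were the most one-sided naming class. LINC00672 is protein-coding in a newer annotation and is counted here by its name. Of the 16 members, 15 were lower and 14 of these by at least 4-fold, and 7 had 0 counts in all GFP+CV+ libraries. The class median was -7.44, or -4.93 with members at 0 set at their bound. Antisense-named members divided evenly, with 12 higher and 12 lower, and clone-named members comprised 59 higher and 75 lower. LINC members were also scarcer, with a median mean count of 60.7, compared with 196 in clone-named and 302 in antisense-named members. Of the other listed genes, 43 of 47 were lower under a mean count of 50 and 41 of 51 from 50 to under 100. The part of abundance in the difference between naming classes was not tested.

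Promoter windows were taken from RefSeq (GRCh38.p14, 250 bases before to 50 after the start), in which 51 of the 174 members had an entry. Windows are printed for the named members whose RefSeq start lay within 200 bases of the GENCODE start and whose window held no exon of a protein-coding gene, since they show what lies upstream of the transcripts that the results turn on. Capitals mark matches on either strand to 4 short promoter motifs, which are TATAAA (the TATA box), CCAAT (the CCAAT box), GGGCGG (the GC box) and the palindrome CACGTG (an E-box). No 2 of them overlap in these windows. The first 4 windows belong to lower members.
LINC01561 (chr10:120597699-120597998, plus strand): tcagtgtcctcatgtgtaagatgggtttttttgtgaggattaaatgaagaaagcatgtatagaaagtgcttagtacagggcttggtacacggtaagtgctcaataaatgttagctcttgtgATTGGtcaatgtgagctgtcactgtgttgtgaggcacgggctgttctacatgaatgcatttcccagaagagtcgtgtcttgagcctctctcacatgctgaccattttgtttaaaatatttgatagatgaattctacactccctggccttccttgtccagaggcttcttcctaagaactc
LINC01770 (chr1:1434524-1434823, minus strand): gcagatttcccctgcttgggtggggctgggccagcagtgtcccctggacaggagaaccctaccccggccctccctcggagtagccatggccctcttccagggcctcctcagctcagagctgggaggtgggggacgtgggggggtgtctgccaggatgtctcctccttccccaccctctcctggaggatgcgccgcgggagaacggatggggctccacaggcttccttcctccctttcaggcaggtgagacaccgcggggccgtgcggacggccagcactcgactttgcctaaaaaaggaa
LINC00704 (chr10:4678021-4678320, minus strand): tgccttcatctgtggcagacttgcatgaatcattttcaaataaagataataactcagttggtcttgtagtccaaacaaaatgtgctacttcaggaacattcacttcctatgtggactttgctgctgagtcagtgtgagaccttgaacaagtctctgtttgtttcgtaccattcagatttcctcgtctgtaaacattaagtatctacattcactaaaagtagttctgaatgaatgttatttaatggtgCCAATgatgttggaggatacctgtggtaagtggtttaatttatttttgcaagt
ADIRF-AS1 (chr10:86971191-86971490, minus strand): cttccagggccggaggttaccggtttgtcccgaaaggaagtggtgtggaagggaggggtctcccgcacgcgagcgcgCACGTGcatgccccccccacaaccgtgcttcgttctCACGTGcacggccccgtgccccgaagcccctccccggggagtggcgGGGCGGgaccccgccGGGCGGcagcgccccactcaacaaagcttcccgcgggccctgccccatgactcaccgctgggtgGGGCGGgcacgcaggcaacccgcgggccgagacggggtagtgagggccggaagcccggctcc
The other 3 belong to antisense-named members that were higher.
FBXW7-AS1 (chr4:152337424-152337723, plus strand): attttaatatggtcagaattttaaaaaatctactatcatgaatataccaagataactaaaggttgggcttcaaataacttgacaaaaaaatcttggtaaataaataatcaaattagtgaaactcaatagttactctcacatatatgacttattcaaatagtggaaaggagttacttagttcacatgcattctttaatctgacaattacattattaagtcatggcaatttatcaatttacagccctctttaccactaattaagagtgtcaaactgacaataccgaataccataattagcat
IGFBP7-AS1 (chr4:57109512-57109811, plus strand): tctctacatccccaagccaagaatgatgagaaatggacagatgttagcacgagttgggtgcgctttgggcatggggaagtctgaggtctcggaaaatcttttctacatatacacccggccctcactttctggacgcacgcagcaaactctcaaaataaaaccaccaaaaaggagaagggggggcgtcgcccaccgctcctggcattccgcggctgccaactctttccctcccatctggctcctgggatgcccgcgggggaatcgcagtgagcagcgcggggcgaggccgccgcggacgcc
RBMS3-AS2 (chr3:29642767-29643066, minus strand): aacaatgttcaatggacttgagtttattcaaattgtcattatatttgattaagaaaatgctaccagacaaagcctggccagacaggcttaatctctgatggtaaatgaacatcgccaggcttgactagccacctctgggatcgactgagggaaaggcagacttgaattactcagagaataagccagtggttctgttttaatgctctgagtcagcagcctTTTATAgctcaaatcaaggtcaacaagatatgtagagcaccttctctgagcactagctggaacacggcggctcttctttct

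The windows differed widely in base composition, from 28.0% G and C in FBXW7-AS1 to 73.3% in ADIRF-AS1. ADIRF-AS1 held 5 matches, 3 to GGGCGG and 2 to CACGTG, while LINC01770, IGFBP7-AS1 and FBXW7-AS1 held none. Across the 51 matched members GGGCGG was found in 51.0%, CCAAT in 33.3%, TATAAA in 7.84% and CACGTG in 7.84%. The shares over all 35116 RefSeq promoters of the same length were 45.0%, 34.6%, 11.5% and 7.26%. CACGTG was found in 4 of the 34 lower and in 0 of the 17 higher matched members. These are matches of letters in a window and do not show binding.

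LINC01561 is an intergenic transcript of chromosome 10 (chr10:120597949-120600124 in GRCh38). Its normalized counts were 310.2, 442 and 58.5 in the GFP+CV- libraries and 0 in all 3 GFP+CV+ libraries, which puts it at least 82.1-fold lower (adjusted p = 0.00391, edgeR). The level varied by several fold among the GFP+CV- libraries, with replicate 3 the lowest. LINC01693 (chr1:211639440-211654627), called NTRAS in the newer annotation, was steadier, at 249, 226 and 190.2 against 0 in every GFP+CV+ library, or at least 67.4-fold lower (adjusted p = 0.00322). It had the smallest p-value of all LINC members. LINC00626 stood at 210.2, 73.3 and 48.8 and LINC01770 at 68.1, 79.8 and 48.0, and both were at 0 throughout the GFP+CV+ libraries. Their bounds were at least 33.6-fold and at least 19.8-fold lower, the first of which was 18.5-fold without GFP+CV- replicate 1. LINC02427 was even among GFP+CV- libraries, at 105, 101 and 111, and had 1.90, 0 and 0 in GFP+CV+ libraries, where replicate 1 alone held any reads.

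LINC00704 was the abundant exception among the lower LINC genes. It is also named MANCR, for mitotically associated long noncoding RNA, and has been described in triple negative breast cancer cells (chr10:4581295-4678216, no coding gene there). Its levels were 7085, 6482 and 7144 in GFP+CV- and 3077, 3618 and 3813 in GFP+CV+ libraries, a log2 fold change of -0.98 ± 0.16 (SE) (adjusted p = 0.00322). The groups were far apart relative to their spread, and it was the only lower LINC member that changed by less than 4-fold. LINC01234, reported in several carcinomas, was lower in all GFP+CV+ libraries, at 39.0, 307 and 203 against 1280.1, 1352 and 1509. Its log2 fold change was -2.91 ± 0.72 (SE), and GFP+CV+ replicate 1 was the lowest. Its log2 fold change was -3.52 without GFP+CV+ replicate 2. LINC02454 was at 434, 349 and 232 and 64.7, 61.4 and 106 (log2 fold change -2.13 ± 0.60 (SE)). LINC02228 was the only LINC member that was higher, at 395, 472 and 683 in GFP+CV- and 1333, 1410.2 and 1417 in GFP+CV+ libraries, with a log2 fold change of 1.42 ± 0.35 (SE). Its GFP+CV+ libraries lay close together. LINC01234, LINC02454 and LINC02228 were named after their values were seen.

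At the NKD1 locus on chromosome 16, 3 members were higher in GFP+CV+ cells. NKD1 encodes a cytoplasmic antagonist of Wnt signalling that binds Dishevelled. AC007493.1, a long noncoding RNA that ends 2048 bases before NKD1 on the same strand (chr16:50407184-50546347), had 153, 485 and 415 in GFP+CV- and 7526, 10002 and 20408 in GFP+CV+ libraries. Its log2 fold change of 5.17 ± 0.59 (SE) had the smallest p-value of all higher members (adjusted p = 0.00321). AC007608.4, a single-exon model within an intron of NKD1 on the same strand (chr16:50555355-50558719), had 838, 441 and 562 and 5465, 6112 and 16254, a log2 fold change of 3.92 ± 0.51 (SE) (adjusted p = 0.00322) that was 3.24 without GFP+CV+ replicate 3. AC007608.2, which runs opposite to NKD1 and starts 1415 bases from the start of AC007608.4 (chr16:50551824-50553940), had 0 counts in all GFP+CV- and 80.8, 23.0 and 24.9 in GFP+CV+ libraries. It was at least 16.4-fold higher, or at least 9.16-fold without GFP+CV+ replicate 1. All 3 transcripts and NKD1 itself were higher in every GFP+CV+ library than in any GFP+CV- library.

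NKD1 had 1653, 2877 and 1543 in GFP+CV- and 6294, 8708 and 12965 in GFP+CV+ libraries, a log2 fold change of 2.20 ± 0.35 (SE). The log2 ratio of AC007608.4 to NKD1 (with 1 added to each) went from -1.71 ± 0.89 (SD, n = 3) in GFP+CV- to -0.13 ± 0.42 in GFP+CV+ libraries. The ratio was higher in all 3 GFP+CV+ libraries (exact permutation test without regard to the pools of mice, two-sided, p = 0.1, the smallest that 3 against 3 can give). AC007608.4 and AC007608.2 share no annotated exon base with NKD1. Per kb of exon, AC007493.1 went from 69.0 to 2485 and AC007608.4 from 182 to 2757 normalized counts, compared with 117 to 537 for NKD1. Both transcripts were thus above NKD1 per unit of length in GFP+CV+ cells. Introns are not counted in the exon length of NKD1, and unspliced NKD1 RNA cannot be told apart from AC007608.4 or AC007608.2 in these counts.

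Antisense names are given to transcripts on the strand opposite a named gene. For 6 of the 24 antisense-named members, the gene behind the name was also listed, and in all 6 pairs both went the same way. Overlapping listed genes outside the set did so in 27 of 28 pairs (background 96.4%), so that this is not particular to antisense names. FBXW7 encodes the substrate receptor of a ubiquitin ligase that marks cell cycle proteins for degradation. FBXW7-AS1 (chr4:152337655-152338098) had 9.42, 12.9 and 18.7 in GFP+CV- and 26.6, 177 and 279 in GFP+CV+ libraries, a log2 fold change of 3.54 ± 0.97 (SE) (adjusted p = 0.00978) that was 2.88 without GFP+CV+ replicate 3. FBXW7 had 587, 1139 and 676 and 2622, 4391 and 8306, a log2 fold change of 2.67 ± 0.48 (SE). GFP+CV+ replicate 1 was the lowest of its group for both, and for FBXW7-AS1 it lay nearest to the GFP+CV- libraries. Their log2 ratio overlapped between the groups, at -5.76 ± 0.63 and -5.36 ± 1.05 (SD, n = 3; exact permutation p = 0.7).

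LEF1 encodes a transcription factor that carries Wnt signals to its target genes. LEF1-AS1 starts 1431 bases from the start of LEF1 and shares 279 exon bases with it (chr4:108167525-108258037). LEF1-AS1 had 107, 180.1 and 99.2 in GFP+CV- and 456, 252 and 1028 in GFP+CV+ libraries, a log2 fold change of 2.17 ± 0.69 (SE) (adjusted p = 0.0157). This call was lost with the replicate block (adjusted p = 0.0515), without GFP+CV+ replicate 3 (0.0609) and without GFP+CV- replicate 3 (0.0547). LEF1 had 1701, 1546 and 1603 and 3267, 3771 and 10145, a log2 fold change of 1.82 ± 0.44 (SE). In both genes GFP+CV+ replicate 3 was the highest library, and without it the log2 fold changes were 1.46 for LEF1-AS1 and 1.12 for LEF1.

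IGFBP7, a secreted binding protein of insulin-like growth factors, and IGFBP7-AS1 moved by almost the same amount. IGFBP7-AS1 (chr4:57109762-57207459) had 668, 209 and 391 in GFP+CV- and 1771, 1467 and 1231 in GFP+CV+ libraries, a log2 fold change of 1.82 ± 0.48 (SE) (adjusted p = 0.00891). IGFBP7 had 4998, 1947 and 2667 and 14107, 10269 and 9805, a log2 fold change of 1.83 ± 0.35 (SE). Library by library the order was shared, with replicate 1 highest in both groups and for both genes. They share 94 exon bases, 2.51% of the antisense transcript.

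Counts of RBMS3-AS2 changed more than those of its gene. RBMS3 encodes an RNA-binding protein that binds single-stranded nucleic acid, and RBMS3-AS2 lies within it with no shared exon base (chr3:29526251-29642809). Unspliced RBMS3 RNA cannot be told apart from RBMS3-AS2 in these counts. RBMS3-AS2 had 0, 4.31 and 21.9 in GFP+CV- and 203, 292 and 461 in GFP+CV+ libraries, a log2 fold change of 5.16 ± 1.38 (SE) (adjusted p = 0.00922). RBMS3 had 1541, 1595 and 1556 and 5192, 4030.0 and 7473, a log2 fold change of 1.83 ± 0.26 (SE). The log2 ratio was -8.30 ± 2.25 and -4.16 ± 0.46 (SD, n = 3) and did not overlap between the groups (exact permutation p = 0.1). The GFP+CV- libraries spread widely, and the log2 fold change of RBMS3-AS2 was 7.25 without GFP+CV- replicate 3 and 4.57 without GFP+CV- replicate 1.

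ADIRF-AS1 and MYO16-AS1 were lower together with their genes. ADIRF, adipogenesis regulatory factor, had 7224, 8579 and 10505 in GFP+CV- and 3473, 3972 and 1496 in GFP+CV+ libraries, and ADIRF-AS1 (chr10:86965345-86971311) had 7679.6, 8873 and 10945 and 3723, 3977 and 1499. The log2 fold changes were -1.56 ± 0.36 (SE) for ADIRF and -1.58 ± 0.36 (SE) for ADIRF-AS1 (adjusted p = 0.00629). The clone-named AL136982.7, within the same locus, had a log2 fold change of -1.58 ± 0.38 (SE), and the 3 transcripts were nearly proportional in every library. They share exon bases, on both strands. MYO16 encodes an unconventional myosin and was at 175, 57.1 and 17.9 in GFP+CV- libraries and at 0 in all GFP+CV+ libraries. MYO16-AS1 had 66.0, 36.7 and 51.2 in GFP+CV- and 1.90, 0 and 0 in GFP+CV+ libraries (adjusted p = 0.00406), with GFP+CV+ replicate 1 as the only GFP+CV+ library with reads. MYO16-AS1 shares no exon base with MYO16, and unspliced MYO16 RNA cannot be told apart from it where they overlap.

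**Figure D2:**
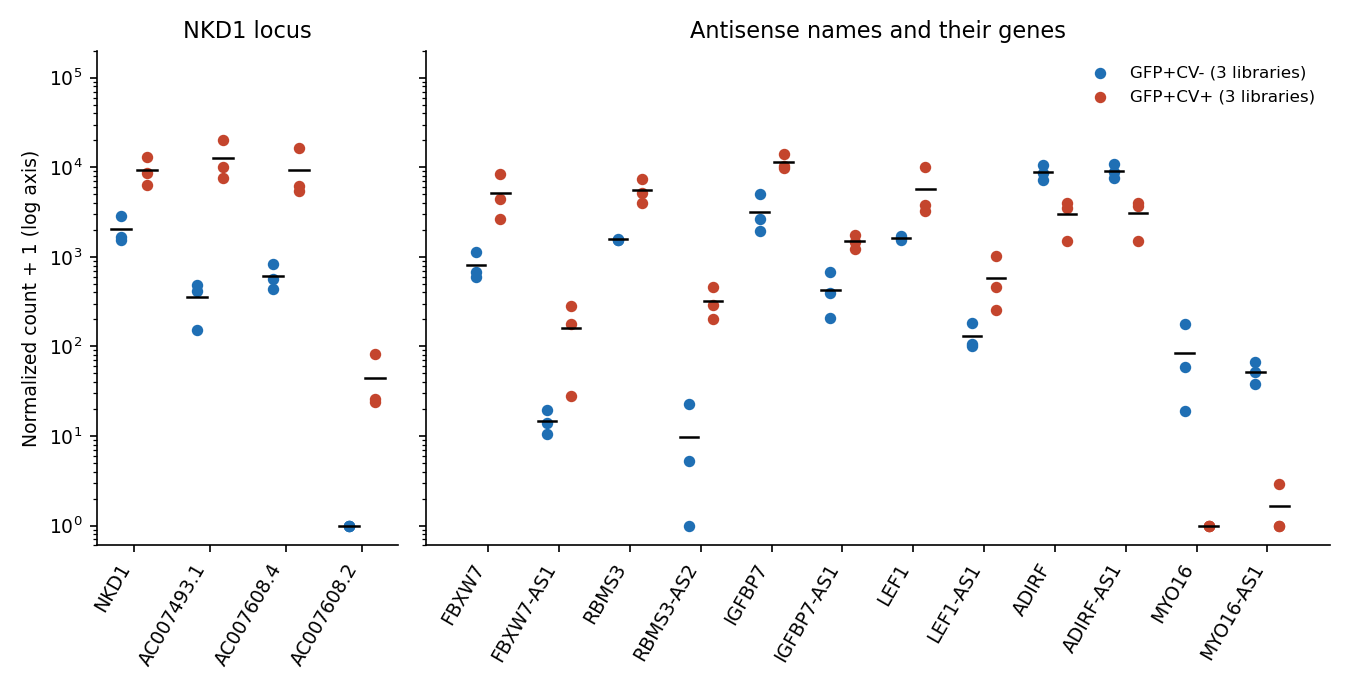
Normalized count plus 1 (log axis) in each of the 3 GFP+CV- and 3 GFP+CV+ libraries, with the group mean as a bar, for NKD1 with the transcripts at its locus and for the 6 antisense-named members beside the genes that give them their names. Every gene and its antisense transcript are on the same side of the GFP+CV- libraries, as were most overlapping listed genes outside the set (background 96.4%). RBMS3-AS2, AC007493.1 and AC007608.4 move further than the coding gene beside them.

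The other 18 antisense-named members had no listed name-giving gene, and of these 8 were higher and 10 lower. Without such a gene in the table, no comparison with it could be made. PSMA3-AS1 was the most abundant antisense-named member that was higher, at 4022, 7115 and 4157 in GFP+CV- and 8745, 9139 and 18626 in GFP+CV+ libraries. Its log2 fold change was 1.26 ± 0.36 (SE) (adjusted p = 0.0111) and fell to 0.81 without GFP+CV+ replicate 3, the highest library. AL132989.2, which shares 96 exon bases with PSMA3-AS1 on the other strand, went the other way and had 0 counts in all GFP+CV+ libraries. STARD4-AS1 was very even among GFP+CV- libraries, at 1002, 1016 and 999.7, and had 2903, 3865 and 6984 in GFP+CV+ libraries (log2 fold change 2.19 ± 0.35 (SE), adjusted p = 0.00322). The listed gene it overlaps is not STARD4 but NREP, with 2115 shared exon bases and a log2 fold change of 2.40 ± 0.29 (SE). AFAP1-AS1, reported as raised in several carcinomas, was lower, at 2575, 2117 and 2209.9 against 921, 735 and 191, with a log2 fold change of -1.90 ± 0.55 (SE). SMC2-AS1 had 120.3, 78.7 and 35.8 in GFP+CV- libraries and 0 in all GFP+CV+ libraries, or at least 23.8-fold lower. AFAP1-AS1 and SMC2-AS1 were named after their values were seen.

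Overlap with listed coding genes was not limited to antisense names. In 59 pairs a member overlapped a listed gene outside the set, and both genes went the same way in 59 of 59, with 33 pairs higher and 26 lower. The same was true of 27 of 28 overlapping pairs in which neither gene was a member (background 96.4%), so that the share is not particular to the members. The fold changes differed by less than 0.5 on the log2 scale in 47 of the 59 pairs. In 24 pairs the genes shared exon bases on one strand, in 31 they shared them on opposite strands, and 4 shared none. The libraries were made without keeping strand, so reads of a member and of a gene on the opposite strand cannot be told apart where their exons coincide, and exons shared on one strand have the same effect. Unspliced RNA of a gene likewise cannot be told apart from a member within its introns.

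**Figure D3:**
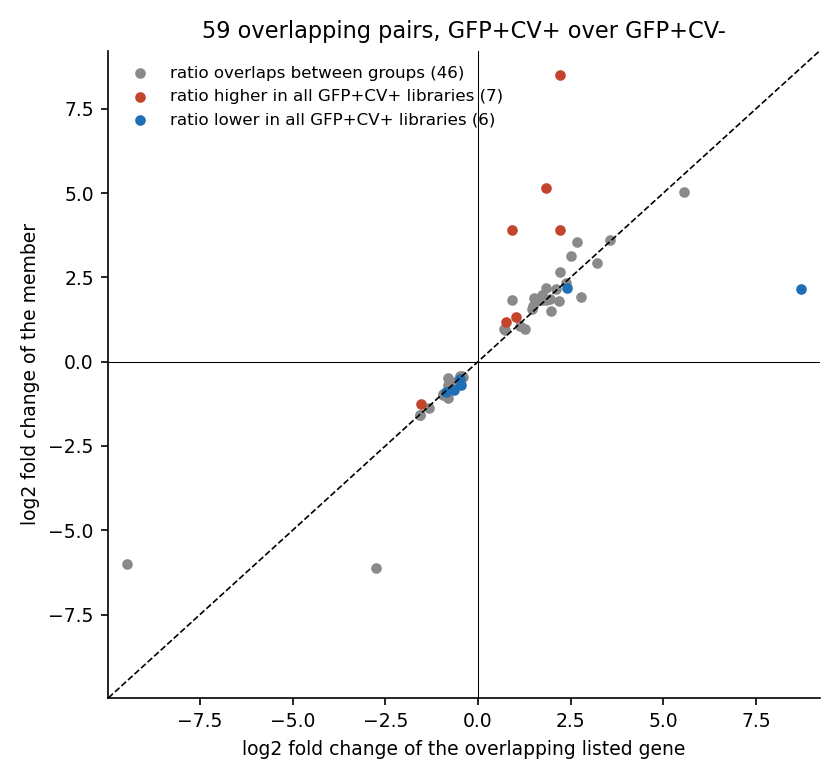
Log2 fold change of the member against that of the listed gene it overlaps, for 59 pairs, with the dashed line marking equal change and colours marking pairs whose member-to-gene ratio did not overlap between the groups. All points lie in the lower left or upper right quadrant, and 46 pairs, in grey, kept an overlapping ratio.

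The members with the highest counts belonged to such pairs. AC006064.4 (chr12:6537794-6538370) lies opposite GAPDH, the glycolytic enzyme glyceraldehyde-3-phosphate dehydrogenase, and 100% of its 422 exon bases lie within exons of GAPDH. Its normalized counts were 129599, 116399 and 126939 in GFP+CV- and 63069.6, 79847 and 65138 in GFP+CV+ libraries, a log2 fold change of -0.84 ± 0.11 (SE) (adjusted p = 0.00322). GAPDH had a log2 fold change of -0.82 ± 0.11 (SE), and the log2 ratio of the pair was -1.82 ± 0.03 and -1.85 ± 0.02 (SD, n = 3; exact permutation p = 0.3). AC011603.2, also named TUBA1B-AS1, shares 1571 exon bases with the alpha-tubulin gene TUBA1B. It had 150231, 121929.8 and 117896 and 90186, 93683 and 93024, a log2 fold change of -0.49 ± 0.11 (SE), and TUBA1B one of -0.48 ± 0.10 (SE). Its call was lost when libraries were scaled by their totals. In both pairs the members followed the coding gene within a few hundredths of a log2 unit.

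Models annotated as protein-coding formed a second group of abundant members. The newer annotation gives 23 members as protein-coding, 22 of them with clone names and the other LINC00672. Several of the clone-named models span more than 1 gene on the same strand. Of the 23 members, 6 were higher and 17 were lower, 15 of them by less than 2-fold. AC004922.1 spans ARPC1A and ARPC1B, subunits of the actin-nucleating Arp2/3 complex, and had 35307, 31043 and 35172 in GFP+CV- and 20469, 22722 and 18972 in GFP+CV+ libraries (log2 fold change -0.71 ± 0.11 (SE), adjusted p = 0.00322). ARPC1A and ARPC1B had log2 fold changes of -0.46 and -0.82. AL049629.2 shares 66.0% of its exon bases with CD59, an inhibitor of complement lysis, and had 20872, 20268 and 30213 and 10599, 12926 and 10129.5, a log2 fold change of -1.08 ± 0.19 (SE) beside -0.80 ± 0.15 (SE) for CD59. In both, all GFP+CV+ libraries were lower.

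Of the protein-coding members that were higher, AL139300.1 shares 79.4% of its exon bases with KLC1, a kinesin light chain. It had 5993, 4512 and 3239.6 in GFP+CV- and 9466, 11474 and 7915 in GFP+CV+ libraries, a log2 fold change of 1.07 ± 0.25 (SE) (adjusted p = 0.00672) beside 1.14 ± 0.29 (SE) for KLC1. AC019117.3 overlaps AHR, the aryl hydrocarbon receptor, with 2373 shared exon bases, and had log2 fold changes of 0.96 ± 0.23 (SE) for the member and 1.26 ± 0.23 (SE) for AHR. AC107871.1 overlaps the calmodulin-like gene CALML4 on the same strand, with 4148 shared exon bases. It had 379.8, 306 and 341 and 764, 1259 and 908 (log2 fold change 1.51 ± 0.40 (SE)). AL096711.2 shares 7908 exon bases with KIAA0408 and had 144, 112 and 86.2 and 485, 199.7 and 611, with a log2 fold change of 1.92 ± 0.64 (SE) (adjusted p = 0.0189). That call was lost with the replicate block (adjusted p = 0.0541), without GFP+CV+ replicate 3 (0.0532), without GFP+CV- replicate 2 (0.0540) and without GFP+CV- replicate 3 (0.0602).

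AC138932.1 is the pseudogene PKD1P3 in the newer annotation and shares 3837 exon bases with NPIPA1. It belongs to families of near-identical copies, so its counts are uncertain. It had 312, 249 and 307 in GFP+CV- and 709, 626 and 623 in GFP+CV+ libraries, a log2 fold change of 1.17 ± 0.43 (SE) (adjusted p = 0.0275). The adjusted p was 0.0667 with the replicate block and 0.0528 to 0.0800 without GFP+CV+ replicate 1 or without any single GFP+CV- library. AC069281.2 overlaps LRCH4 on the same strand with 2588 shared exon bases, and had 291, 287 and 228 and 588, 579 and 1354, a log2 fold change of 1.65 ± 0.51 (SE). Its adjusted p of 0.0151 became 0.0507 without GFP+CV- replicate 3.

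The ratio of member to overlapping gene did not overlap between the groups in 13 of the 59 pairs, higher in 7 and lower in 6. This is 22.03% of the pairs, beside a background of 39.3% for overlapping pairs without a member. With 3 libraries against 3 the exact permutation test cannot give a p under 0.1. The largest shift upward among pairs with shared exon bases was that of AC004812.2, named RAB35-AS1 in the newer annotation, which starts 595 bases from the start of RAB35, a small GTPase of endosomal recycling. AC004812.2 had 60.9, 4.31 and 38.2 in GFP+CV- and 697, 227 and 641 in GFP+CV+ libraries, a log2 fold change of 3.91 ± 1.02 (SE) beside 0.92 ± 0.28 (SE) for RAB35. Without GFP+CV- replicate 1 the value of AC004812.2 was 4.59. The log2 ratio was -5.59 ± 1.60 and -2.19 ± 0.71 (SD, n = 3; exact permutation p = 0.1). AC011481.3, at the apolipoprotein locus, had log2 fold changes of 2.16 ± 0.58 (SE) for itself, 2.10 for APOC1 and 8.72 for APOE. APOE had normalized counts of 2.90, 0 and 0 in GFP+CV- and 466, 774 and 254 in GFP+CV+ libraries. The size of its fitted value therefore depends on the prior count. It was 11.95 without GFP+CV- replicate 1, the only GFP+CV- library with reads. The member followed APOC1, with 479 shared exon bases, and not APOE, with 19. AC025164.1, named BTG1-DT, starts 273 bases from the antiproliferative gene BTG1 and had a log2 fold change of 2.65 ± 0.67 (SE) beside 2.22 ± 0.31 (SE) for BTG1. AC004812.2, AC011481.3 and AC025164.1 were named after their values were seen.

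Position relative to every annotated coding gene, listed or not, was given for 171 members. Each member was put in a single class, and a shared exon on the same strand took precedence over one on the opposite strand. A shared exon on the opposite strand, with none on the same strand, was found for 59 members, 31 higher and 28 lower. A shared exon on the same strand was found for 34, of which 14 were higher and 20 lower, and the median was -0.45. In 25 members that overlapped a gene without sharing exon bases, 11 were higher and 14 lower. For 43 members no coding gene overlapped or started within 1 kb on the opposite strand, and 30 of these were lower, 29 by at least 4-fold. Near coding genes on the same strand were not counted unless they overlapped. The median of these 43 members was -6.06, or -4.06 with members at 0 set at their bound. The position classes also differed in abundance. Median mean counts were 66.0 with no coding gene there, 42.7 for overlap without shared exon bases, 354 for sharing on the opposite strand and 3255 for sharing on the same strand. Direction followed abundance in the other listed genes too, and its part in the differences between positions was not tested.

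**Figure D4:**
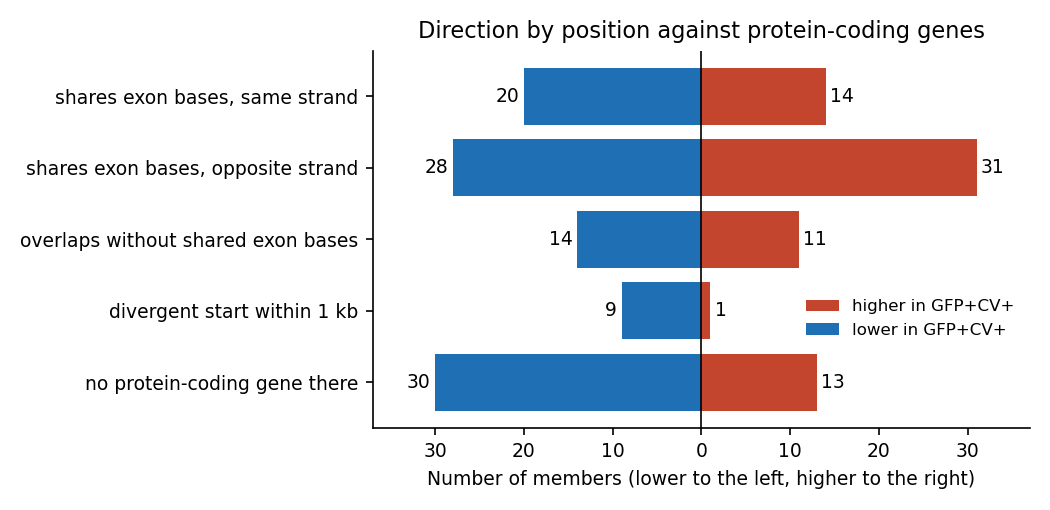
Number of members higher (right) and lower (left) in GFP+CV+ cells, by position against the protein-coding genes of GENCODE 44. Lower members outnumber higher ones 30 to 13 where no coding gene overlaps or starts within 1 kb on the opposite strand. They do so 9 to 1 at divergent starts without overlap. The numbers are nearly even, 28 and 31, where exons are shared on the opposite strand only. These classes also differed in abundance, with median mean counts of 66.0, 42.1 and 354 in that order.

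Divergent members, which start within 1 kb of a coding gene and run away from it without overlap, comprised 10 transcripts, and 9 were lower by at least 4-fold. Their median mean count was 42.1, and scarce listed genes outside the set were also mostly lower. None of the 10 coding genes was listed. Members that start as near on the opposite strand but overlap the gene were put in the overlap classes. They went both ways, with AC004812.2 higher and EPHA5-AS1 lower as examples. The split in direction given here thus holds only for starts without overlap. LINC01770, whose window is printed above, starts 288 bases from VWA1 and was described with the LINC genes. AL139289.2, named CDC20-DT, starts 305 bases from CDC20, the activator of the anaphase-promoting complex. It had 28.3, 61.5 and 26.01 in GFP+CV- and 0 in all GFP+CV+ libraries, or at least 11.7-fold lower. CEP83-AS1 starts 15 bases from the centrosomal gene CEP83 and had 474, 381 and 148 in GFP+CV- and 0, 0 and 5.53 in GFP+CV+ libraries. The single member of this class that was higher was AC092119.2, which starts 274 bases from UQCRC2, a subunit of respiratory complex III. AC092119.2 was at 1.45, 71.2 and 23.6 and 285, 198 and 942 (log2 fold change 3.90 ± 1.31 (SE)). Its GFP+CV- libraries spread widely. The log2 fold change was 5.24 without GFP+CV- replicate 2 and 2.92 without GFP+CV+ replicate 3, where the call was lost (adjusted p = 0.0578), as it was without GFP+CV- replicate 3 (0.0704). AL139289.2, CEP83-AS1 and AC092119.2 were named after their values were seen.

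Members at or near 0 in GFP+CV+ cells included some of the smallest p-values outside the LINC class. AL441883.1 (chr6:13614101-13615190) had 118, 126 and 99.2 in GFP+CV- libraries and 0, 0.960 and 0 in GFP+CV+ libraries (adjusted p = 0.00322). Of its exon bases 97.1% lie within exons of SIRT5 on the opposite strand, where reads of the 2 genes cannot be told apart. SIRT5 was not listed. AL157712.1, an unprocessed pseudogene of chromosome 10, had 178, 219 and 123 and 1.90, 0 and 0 (adjusted p = 0.00322). AL049838.1, with no coding gene there, had 120.3, 97.0 and 79.7 in GFP+CV- libraries and 0 in all GFP+CV+ libraries, or at least 30.1-fold lower. AC105277.1, named LINC02777 in the newer annotation, had 129.7, 248 and 28.4 and was at 0 throughout GFP+CV+ libraries, or at least 41.1-fold lower, although GFP+CV- replicate 3 was far below the other two. Without GFP+CV- replicate 2, the highest, the bound was 24.0-fold.

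In the opposite direction, AC022537.1 and AC018752.1 were absent from GFP+CV- libraries. AC022537.1 overlaps PRKG1, a cyclic GMP-dependent kinase gene, without shared exon bases (chr10:51244894-51245806). It had 0 counts in all GFP+CV- and 95.1, 48.0 and 429.6 in GFP+CV+ libraries, which makes it at least 73.0-fold higher, with replicate 3 several times above the others. Without that library it was at least 27.3-fold higher. AC018752.1, which overlaps COMMD10 without shared exon bases (chr5:116302354-116304134), had 98.9, 29.8 and 93.9 in GFP+CV+ libraries and was at least 28.4-fold higher. Unspliced PRKG1 or COMMD10 RNA cannot be told apart from the member it overlaps in these counts. AL359694.2, which had no match in the newer annotation, had 146, 213 and 141 in GFP+CV- and 1086, 1741 and 4082 in GFP+CV+ libraries, a log2 fold change of 3.78 ± 0.57 (SE) (adjusted p = 0.00322). Without GFP+CV+ replicate 3 it was 3.08.

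Library by library, GFP+CV+ replicate 3 was the highest of its group in 51 of the 72 higher members (65.6% of all listed genes that were higher). The median normalized count of the higher members was 763.9 in that library, 462.6 in replicate 1 and 372.0 in replicate 2, compared with 85.7 to 129.4 in GFP+CV- libraries. For the lower members the medians were 0.960 to 2.76 in GFP+CV+ and 122.7 to 218.9 in GFP+CV- libraries, and every lower member had reads in all 3 GFP+CV- libraries. Without GFP+CV+ replicate 3, 64 members were called higher and 101 lower, and 35 were at least 4-fold higher.

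Markers of other cells moved with the groups. Of 8 fibroblast and mural cell markers 5 were listed and all 5 were higher in GFP+CV+ libraries, with summed normalized counts of 4558 to 7759 in GFP+CV- and 44038 to 71335 in GFP+CV+ libraries. Of 8 astrocyte markers 3 were listed, all higher, with sums of 579.9 to 1339 and 3984 to 7215. Of 12 markers of microglia and macrophages 2 were listed, CD4 higher and ITGB2 lower, with sums of 201.6 to 1299 and 1063 to 1753. The 6 endothelial and the 6 neuronal and oligodendrocyte markers were not among the listed genes. No listed marker was at 0 in a whole group. The part of these markers in the results on the members was not tested.

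Long noncoding RNAs with other names gave a reference from the same table. Of 35 well-known ones 5 were listed, and 4 of these were higher, namely MALAT1, NEAT1, CASC15 and CRNDE. NEAT1, the scaffold of nuclear paraspeckles, had a log2 fold change of 1.33 ± 0.17 (SE) and the abundant nuclear MALAT1 one of 1.11 ± 0.27. RPPH1, the RNA of ribonuclease P, was lower at -1.53 ± 0.47, and the overlapping member AL355075.4 at -1.27 ± 0.39 (SE). The call of AL355075.4 was lost with library totals (adjusted p = 0.0561) and without GFP+CV- replicate 3 (0.0736). Of the 15 members picked for a role known from the literature, 8 were higher and 7 lower. Of 23 genes of the nuclear exosome and its adaptors, which degrade unstable noncoding transcripts, 2 were listed and both were lower by less than 2-fold, EXOSC10 at -0.38 ± 0.11 and EXOSC7 at -0.48 ± 0.17.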

How the data were processed

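The authors used Cutadapt for trimming, STAR 2.7 for alignment to the joined human (GRCh38.p12) and mouse (GRCm38.p6) genomes and RSubread for counting against GENCODE 31, with multi-mapping reads included and mouse reads discarded. Libraries were made by Smart-seq2 and Nextera XT, which do not keep strand, and the strand setting of the counting was not given in the sources used here. The deposited table holds estimated counts per gene, in part not whole, and normalized counts, a signal that the authors made by division by DESeq2 size factors (0.724 to 1.38). Recomputed and deposited normalized counts differed by less than 0.0001. The authors' own comparison columns (base mean signal, fold ratio, log2 fold change, its error and test score, p-value and adjusted p-value) describe their finding and were not used.

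Estimated counts were rounded and fitted in edgeR 4.0.16 (quasi-likelihood, the authors' size factors, adjustment over all 1161 listed genes) in R 4.3.3. The main fit held no term for the pool of mice. The script was tested on simulated data. Alternatives used limma 3.58.1, DESeq2 1.42.0, TMM factors, library totals, filters, a replicate block and leaving out each library. Same-numbered libraries come from the same pool of mice, by the group number in their titles. Deviations from the group means of same-numbered libraries correlated at 0.057, -0.018 and 0.0012 over the listed genes. Labels do not name separate cultures. The study describes the pools as independent experiments, so the spread is that between experiments, each with its own pool of mice.

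Positions came from GENCODE 44, a newer annotation of the same assembly, in which 171 of 174 members matched by identifier. Overlap needed at least 1 base. Ratios are log2 of normalized counts with 1 added to each, compared by exact permutation tests, two-sided. These tests shuffled all libraries and did not keep the pairing by pool of mice. Named genes were the 5 smallest p-values and 4 highest means in each direction, antisense-named members with a listed name-giving gene, the 8 members sharing most exon bases with a listed gene, the 4 LINC genes with the smallest p-values and the 4 highest of those at 0 in a whole group. The members, lists and rules were chosen with earlier results of these data known. The table holds only genes called in the same contrast, so that depth over all genes is unknown here. Counting limits take 3 counts as the bound for a count of 0 and cover counting error only.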

Additional observations from a re-analysis of the deposited data

How the results depend on the processing

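The direction of every named member was kept under all the alternatives run for it, which were TMM factors, library totals, DESeq2, limma with a pseudocount of 1 or 10, the replicate block and leaving out each library. Of 408 such values, 394 stayed on the same side of the threshold and 14 did not, and the members concerned were LEF1-AS1, AL096711.2, AC138932.1, AC069281.2 and, with library totals, AC011603.2. With the replicate block 63 members were called higher and 94 lower, compared with 72 and 102. Library totals moved the median of the members to -0.36 and called 72 higher and 82 lower. Keeping genes with a mean count of at least 100 left 102 members, 54 higher and 48 lower, turned their median to 0.99, as it turned that of all listed genes to 0.84, and left 27 at least 4-fold higher and 14 at least 4-fold lower, with the scarcer genes removed. All 48 lower members that remained were called. When p-values were adjusted over all 62700 annotated genes, as if the unlisted genes had none under 1, 0 members were called higher and 0 lower in edgeR (lowest adjusted p = 0.173), although all 174 had an unadjusted p under 0.05. A minimum of 10 counts in 3 libraries removed no gene. Extending neighbours to 10 kb gave 98.4% of pairs in the same direction, with AC010463.1 and ABHD8 as the exception. Leaving out 1 library gave 62 to 69 members called higher and 95 to 101 called lower.

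The cause of each lost call was not tested. The table holds only genes called in this contrast, so that unchanged transcripts of the same names were not analysed here, and members at 0 are limited by a bound of 3 counts per library, whose median of 19.9-fold was 9.94-fold with 6 counts, an alternative chosen after seeing the data. Among whole counts from 1 to 50 of the members, 60.7% to 84.0% were even in each library.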

Other observations

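Pseudogenes among the clone-named members moved in both directions. Of 11 members annotated as pseudogenes, 6 were higher and 5 lower. The processed pseudogene AC079880.2 had normalized counts of 8.70, 0 and 20.3 in GFP+CV- and 334, 118 and 1649 in GFP+CV+ libraries, with replicate 3 far above the others. EEF1A1P47, listed as AC110056.1, had 129.7, 219 and 14.6 in GFP+CV- and 1.90, 2.88 and 0 in GFP+CV+ libraries, where all values were low. These were named after their values were seen, and reads of a processed pseudogene and its parent gene were not separated here.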
